A study of Mus musculus with 7 samples.

Results

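The report concerns 6 genes that are used to mark lymphatic, venous and sinusoidal endothelium, namely Lyve1, Pdpn, Prox1, Nr2f2, Stab1 and Stab2. They were taken by symbol from the 49585 genes listed for each library, and all 6 were present as single rows. Total RNA of MS-1 cells was sequenced in 4 libraries with the label of LPL overexpression (lipoprotein lipase, which frees fatty acids from circulating triglyceride) and in 3 control libraries of wild-type genotype. MS-1 is a mouse endothelial line from pancreatic islets, immortalised with a viral oncogene, and the cells of both groups were grown in DMEM. The labels give neither the species of the LPL sequence nor how it was introduced, nor whether the overexpressing cells are 1 clone, and no vector-only library was analysed. They also do not say whether replicates were separate cultures, and every p-value here reflects the spread among these libraries alone, part of which may be technical.

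Endothelial cells differ by vascular bed, and each of these genes is known from particular beds. Nr2f2 (COUP-TFII), an orphan nuclear receptor, holds venous identity by restraining Notch signalling, and together with Sox18 it switches on Prox1, the homeobox factor that makes embryonic venous cells lymphatic. Lyve1 is a surface receptor for hyaluronan and podoplanin, the product of Pdpn, is a mucin-like ligand of the platelet receptor CLEC-2. Both are classical surface markers of lymphatic capillaries. Stabilin-1 and stabilin-2, encoded by Stab1 and Stab2, are related scavenger receptors that sinusoidal endothelium of liver and spleen carries together with LYVE1. Stab1 and Lyve1 are also known from tissue macrophages, Pdpn from fibroblasts and mesothelium, and Prox1 from hepatocytes and islet cells.

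The libraries held between 24328418 and 29210847 reads in the sense orientation. Lpl had 10867, 12691, 10901 and 12753 reads in the LPL overexpression libraries, against 1, 1 and 6 in the controls. Genes were tested with edgeR's quasi-likelihood test on the counts, with p-values adjusted over all 13639 genes that passed a filter on low counts. Of these, 43.2% passed an adjusted p of 0.05, with 2988 higher and 2900 lower in the LPL overexpression libraries. On log2(TPM + 0.5) values the same call gave 3304 higher and 2082 lower. All 4 LPL overexpression libraries also carried melanocyte genes. Of 12 melanocyte markers tested, 11 were called higher, and all 12 summed to 1691 to 1794 counts per 1000000 (CPM) with LPL overexpression, against 107 to 111 CPM in the controls. Most of the control sum was Kit, the marker not called, at a mean of 90.0 CPM in controls and 90.1 CPM with LPL overexpression. Of the 12, 8 had at most 3 control reads. These 8 passed the filter only through the LPL overexpression libraries and could count only as rises. Tyrp1, Dct, Mlana, Tyr, Sox10 and Mlph had 0 reads in all 3 controls. Every comparison of the groups given here also spans that difference, and the part of the pigment cell genes in any result was not tested. In bulk RNA, fewer cells of a type and less RNA per cell cannot be told apart.

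The 6 genes covered more than 3 orders of magnitude in level, and the order was nearly the same in both groups. In TPM, transcripts per 1000000, a level scaled by exonic length, Stab1 averaged 268 ± 19.7 in the LPL overexpression libraries (SD, n = 4) and 279 ± 6.68 in the controls (SD, n = 3). Lyve1 came next with 51.1 ± 2.51 TPM and 60.9 ± 0.692 TPM, then Nr2f2 with 18.8 ± 0.430 TPM and 19.6 ± 0.109 TPM, and Pdpn with 5.46 ± 0.673 TPM and 5.44 ± 0.911 TPM, LPL overexpression before control in each case. No library overlapped between neighbours among these 4 genes. Only 577 genes had a higher mean TPM than Stab1, which placed it above 97.6% of the 24468 genes with any read. Lyve1 stood above 85.9% of them, Nr2f2 above 71.8% and Pdpn above 59.0%.

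Prox1 and Stab2 lay near the limit of detection and changed places in the order. In the LPL overexpression libraries Prox1 averaged 0.255 ± 0.100 TPM and Stab2 0.0572 ± 0.0345 TPM, and the lowest Prox1 value, 0.110, was above the highest Stab2 value, 0.0883. In the controls Prox1 averaged 0.0140 ± 0.0243 TPM and Stab2 0.0599 ± 0.0310 TPM, with values that overlapped. The defining transcription factor of lymphatic cells and the second sinusoidal stabilin were therefore close to absent in MS-1 cells, while Lyve1 and Stab1 were well expressed. The cells are labelled endothelial, and of 12 general endothelial markers 11 had enough reads to be tested. The 12 summed to 6353 to 6521 CPM with LPL overexpression and to 7312 to 7403 CPM in the controls. The exception was Cldn5, a tight junction gene, with 0 reads in the LPL overexpression libraries and 1 read in the controls.

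**Figure D1:**
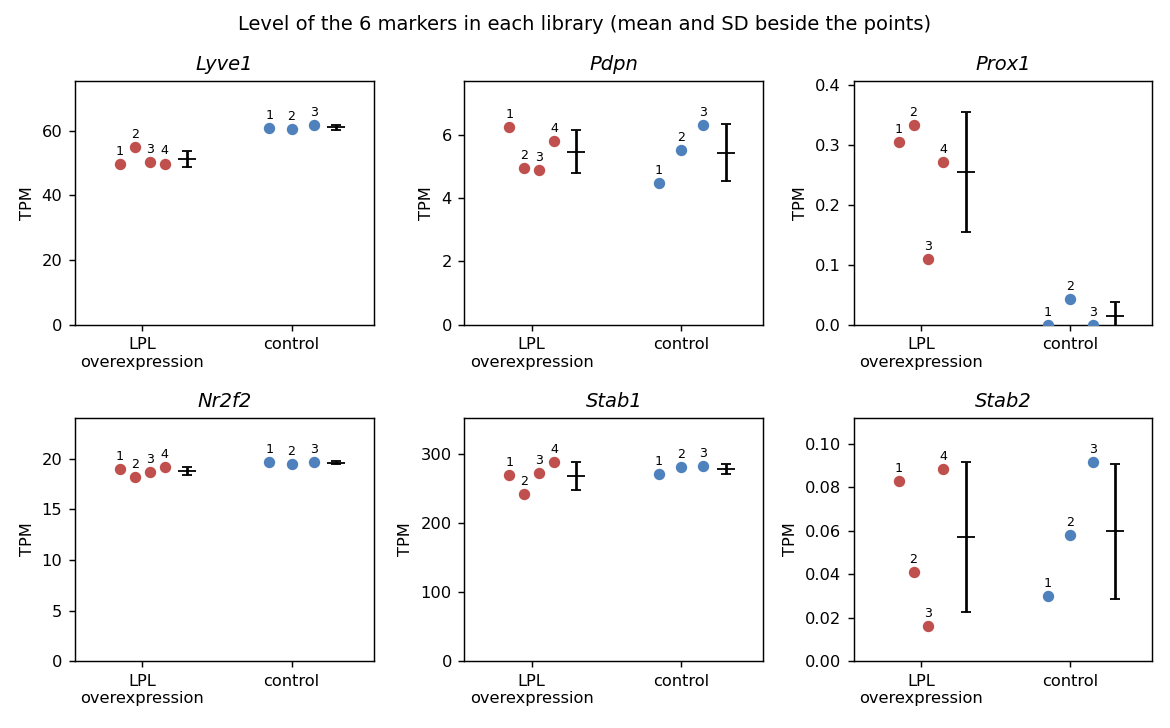
Level of each of the 6 markers in TPM (y axis, linear from 0, separate scale per gene) for every library, with LPL overexpression in red on the left, control in blue on the right, replicate numbers above the points, and mean and SD as black bars. Lyve1 lies at 49.7 to 54.9 TPM with LPL overexpression and at 60.4 to 61.7 TPM in the controls, while Pdpn, Stab1 and Stab2 overlap.

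Lyve1 was lower with LPL overexpression. The gene (ENSMUSG00000030787.4) lies at 110850607 to 110863239 on chromosome 7 (mm10, minus strand), and its coding sequence of 318 codons, the stop codon left out, is spread over a transcript of 6 exons. It had 49.7, 54.9, 50.2 and 49.8 TPM in LPL overexpression replicates 1 to 4, against 60.7, 60.4 and 61.7 TPM in control replicates 1 to 3. Every LPL overexpression library lay below every control. In CPM the groups did not overlap in 44.6% of all genes tested, with the LPL overexpression libraries lower in 21.8%. Mean TPM fell by 16.1%. The log2 fold change was -0.28 (SE 0.04, adjusted p = 8.12e-08 in edgeR), with a 95% interval of 0.780 to 0.872 in fold, and 21.3% of all genes tested were called lower. On TPM the exact permutation test (two-sided) gave p = 0.0286, the smallest that 4 libraries against 3 allow. Among the 2900 genes called lower, 29.3% had a larger fall than Lyve1.

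General endothelial genes of the same libraries moved in both directions. Of the 12 markers 11 were tested, of which 7 fell and 2 rose, with a median log2 fold change of -0.14. Pecam1, an adhesion molecule gene, at -0.40 and Kdr, the main VEGF receptor gene, at -0.34 fell more than Lyve1, and the other 9 fell less or rose, among them Cdh5, the gene of VE-cadherin, at -0.17. When Lyve1 was expressed as a percentage of the summed TPM of those 12 markers in the same library, it stood at 1.112, 1.229, 1.106 and 1.085 in the LPL overexpression libraries, against 1.230, 1.225 and 1.251 in the controls. On this scale LPL overexpression replicate 2 lay among the controls and the difference did not pass (log2 difference -0.13, p = 0.0857, exact two-sided permutation test). This scale was added after the data had been seen, and its largest term was Pecam1, itself called lower. Pecam1 had 1145 ± 17.8 TPM with LPL overexpression and 1479 ± 5.49 TPM in controls. Lyve1 relative to a sum without Pecam1 was not tested, so the loss of the difference is shown for this sum only. The macrophage markers Adgre1, Tyrobp, Cd163, Timd4 and C1qa had 0 reads in all 7 libraries, and Csf1r had 2 reads in the LPL overexpression libraries and 0 in the controls. Others had reads in every library. Fcer1g had 5, 10, 9 and 9 reads with LPL overexpression and 19, 14 and 12 in controls. It was called lower, having passed the filter on low counts only through the controls. Cd14 had 11, 12, 8 and 8 reads, against 4, 5 and 8, and was not tested. The part of macrophages in the Lyve1 reads was not tested. Summed over 15 macrophage markers the level was 94.8 to 104 CPM and 72.2 to 77.6 CPM, LPL overexpression before control, nearly all of it Cd68, a lysosomal protein gene.

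Pdpn was low and no difference was detected. The gene (ENSMUSG00000028583.14, chromosome 4, 143267431 to 143299564, minus strand) encodes a short protein of 172 codons. It had 6.25, 4.93, 4.87 and 5.80 TPM in the LPL overexpression libraries, against 4.49, 5.51 and 6.31 TPM in the controls. The 2 groups overlapped over most of their range. The log2 fold change was -0.02 (SE 0.13, adjusted p = 0.911 in edgeR), and its 95% interval ran from 0.816 to 1.19 in fold, so that changes within that range could not be seen with 67 to 92 reads per library. Podoplanin is also known from other cells, and their part in the Pdpn values was not tested. Of 10 fibroblast and mural cell markers, Dcn and Lum had 0 reads in all libraries. The list summed to 8.32 to 9.25 CPM with LPL overexpression and to 5.56 to 6.34 CPM in the controls. Most of this came from Pdgfra and Pdgfrb, which had reads in every library and did not pass. Pdgfra averaged 4.22 CPM with LPL overexpression and 3.82 CPM in controls, above Pdpn at 2.99 and 3.03 CPM. Pdgfrb averaged 1.99 and 1.70 CPM. The collagen genes Col1a2 and Col3a1 were called higher, as were 21.9% of all genes tested. Both passed the filter on low counts only through the LPL overexpression libraries and could count only as rises. Of 8 mesothelial and epithelial markers, Wt1 and Epcam had 0 reads, Msln and Krt18 were called lower, and the sums were 35.3 to 37.7 CPM with LPL overexpression and 41.9 to 42.7 CPM in the controls, above the level of Pdpn itself. Krt18, a keratin gene, stood at 62.95 TPM and 73.3 TPM.

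Prox1 had 19, 25, 7 and 19 reads in the LPL overexpression libraries, against 0, 3 and 0 in the controls. The gene (ENSMUSG00000010175.13) lies on the minus strand of chromosome 1, from 190118035 to 190170714. In TPM these reads were 0.306, 0.334, 0.110 and 0.271, against 0, 0.0421 and 0, and no library overlapped between the groups. In CPM the LPL overexpression libraries all lay above the controls in 22.8% of all genes tested. All 3 control reads of Prox1 came from replicate 2, and LPL overexpression replicate 3 was the lowest of its group. Over the pooled libraries the ratio of CPM was 17.6, with an exact (Clopper-Pearson) 95% counting interval of 5.77 to 87.2. The fitted log2 fold change was 3.97 (SE 0.60, adjusted p = 4.84e-07 in edgeR), where 21.9% of all genes tested were called higher. Without control replicate 2 the controls held 0 reads and the fitted value was 7.13, which then depends on the prior count, and without control replicate 1 or 3 it was 3.44 and 3.47. The exact two-sided permutation test on TPM gave p = 0.0571. Prox1 passed the filter on low counts only through the LPL overexpression libraries, and it was not tested when replicate 1, 2 or 4 of that group was left out.

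Averaged over all 7 libraries, Prox1 stayed at a level below that of most genes with any read. Of these 24468 genes only 28.8% had a lower mean TPM. Its highest single value, 0.334 TPM in LPL overexpression replicate 2, was also below the median of those means, 1.515 TPM. Markers of hepatocytes and islet cells, in which Prox1 is also known, summed to at most 0.252 CPM with LPL overexpression and 0.422 CPM in the controls, and Ins1, Ins2, Sst and Pdx1 had 0 reads in all 7 libraries. The melanocyte markers with at most 3 control reads, 8 genes chosen by that low count, had sums of 1049, 1015, 1033 and 1061 CPM in LPL overexpression replicates 1 to 4. The part of pigment cells in the Prox1 reads was not tested. No reads in the opposite orientation were counted at Prox1, and the antisense gene Prox1os had 2 reads in the LPL overexpression libraries and 0 in the controls.

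Nr2f2 was only marginally lower. The gene (ENSMUSG00000030551.14, chromosome 7, 70351944 to 70366735, minus strand) encodes 414 codons. It had 19.0, 18.2, 18.7 and 19.2 TPM in the LPL overexpression libraries, against 19.6, 19.5 and 19.7 TPM in the controls, and the groups did not overlap. In CPM the LPL overexpression libraries all lay below the controls in 21.8% of all genes tested. The log2 fold change was -0.09 (SE 0.04, adjusted p = 0.0488 in edgeR), a fold between 0.891 and 0.990. The call ended in 12 of 14 other settings, among them DESeq2 (adjusted p = 0.154) and each setting that left out a control, and on TPM the exact two-sided permutation test gave p = 0.0571. Relative to the 12 general endothelial markers Nr2f2 was higher instead, at 0.424%, 0.408%, 0.412% and 0.419% of their summed TPM, against 0.398%, 0.396% and 0.400% (log2 difference 0.06, p = 0.0286, exact two-sided permutation test). Its direction thus differed between the scale of all genes and this sum of 12 markers. Pecam1, itself called lower, was the largest term of the sum, with 1145 ± 17.8 TPM with LPL overexpression and 1479 ± 5.49 TPM in controls. A sum without Pecam1 was not tested, so the reversal holds for this sum and not for endothelial genes in general.

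Stab1 was the most abundant of the 6 and did not pass the test. The gene (ENSMUSG00000042286.13, chromosome 14, 31139013 to 31168641, minus strand) has 69 exons and encodes 2571 codons. It had 269.9, 242, 273 and 289 TPM in the LPL overexpression libraries, against 271, 282 and 283 TPM in the controls. LPL overexpression replicate 2 was the lowest of all libraries and replicate 4 the highest, so the controls fell inside the range of the other group. The log2 fold change was -0.08 (SE 0.06, adjusted p = 0.337 in edgeR), a fold between 0.855 and 1.05. Without LPL overexpression replicate 4 the value was -0.11 and passed (adjusted p = 0.00221), and without replicate 2 it was -0.03 (adjusted p = 0.367). The last bases of Stab1 overlap Nt5dc2 on the other strand, and reads of the opposite orientation made up 0.447% of those at Stab1.

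Stab2 was close to absent in both groups. The gene (ENSMUSG00000035459.16, chromosome 10, 86841203 to 87007942, minus strand) also has 69 exons, with 2559 codons. It had 5, 3, 1 and 6 reads in the LPL overexpression libraries, against 2, 4 and 6 in the controls, too few to be tested. The pooled ratio of CPM was 0.941, with an exact 95% counting interval of 0.411 to 2.20, so a change of less than about that size could not be seen. Reads at this gene lay mostly on the other strand. The opposite orientation held 48 reads with LPL overexpression and 37 in the controls, or 75.9% of all reads at Stab2, and the antisense gene Gm16268, which overlaps its end, had 27 and 24 sense reads.

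The start regions of the paralogues Stab1 and Stab2 are given because 1 was the most abundant of the 6 and the other near the limit of detection, and that of Prox1 because it was called higher. Each is the RefSeq sequence on GRCm38.p6, the assembly of mm10, from 250 bases before to 50 bases after a transcript start, read 5′ to 3′ on the minus strand. Those of Stab1 (chr14:31168592-31168891) and Stab2 (chr10:87007893-87008192) match the gene starts in the deposited tables, and that of Prox1 (chr1:190170778-190171077) starts 113 bases outside. RefSeq holds another Prox1 start region, at chr1:190169466-190169765, which is not printed. Capitals mark GGAA on either strand, the core that ETS factors such as Erg and Ets1 bind in endothelial promoters.
Stab1: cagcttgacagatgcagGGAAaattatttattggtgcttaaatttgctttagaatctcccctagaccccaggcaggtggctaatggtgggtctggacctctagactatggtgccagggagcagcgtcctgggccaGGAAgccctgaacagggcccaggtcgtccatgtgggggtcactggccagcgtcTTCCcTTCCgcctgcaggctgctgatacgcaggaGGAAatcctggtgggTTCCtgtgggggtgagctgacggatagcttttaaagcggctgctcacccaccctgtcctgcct
Stab2: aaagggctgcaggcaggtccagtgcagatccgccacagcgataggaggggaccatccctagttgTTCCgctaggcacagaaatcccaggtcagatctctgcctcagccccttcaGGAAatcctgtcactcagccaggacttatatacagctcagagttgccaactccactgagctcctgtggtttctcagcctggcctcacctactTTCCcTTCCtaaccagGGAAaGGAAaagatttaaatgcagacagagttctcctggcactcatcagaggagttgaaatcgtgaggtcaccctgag
Prox1: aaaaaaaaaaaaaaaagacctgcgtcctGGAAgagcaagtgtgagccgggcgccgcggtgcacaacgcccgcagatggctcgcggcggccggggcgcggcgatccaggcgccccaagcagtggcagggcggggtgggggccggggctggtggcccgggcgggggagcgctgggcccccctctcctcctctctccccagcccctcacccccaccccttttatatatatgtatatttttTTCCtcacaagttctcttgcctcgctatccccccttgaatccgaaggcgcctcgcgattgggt
GGAA occurred 6 times in Stab1, 6 times in Stab2 and 2 times in the printed region of Prox1 (5 times in its other one), and at least 1 time in 96.0% of 32851 such regions, with a median of 3. This core therefore did not tell the highly expressed paralogue from the near-silent one. The E-box CANNTG occurred 3 times in Stab1 and 0 times in Stab2 (72.3% of all regions held it). AGGTCA, a core bound by nuclear receptors such as COUP-TFII, occurred 0 times in Stab1, 2 times in Stab2 and 0 times in Prox1 (16.3% of all regions). Of the E-boxes in Stab1, 1 was CATGTG, a core bound by Mitf (14.2% of all regions). Stab1 and Stab2 held 7 and 4 CG dinucleotides, and Prox1 25, more than 81.6% of all regions, or 14 in its other one. Motifs were searched on both strands, and a match is no evidence of binding. RefSeq start regions were matched for 5 of the 6 genes.

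Partners of these markers changed in both directions. Flt4, the receptor of the lymphatic growth factors VEGF-C and VEGF-D, had 29.3 ± 2.04 TPM with LPL overexpression and 32.9 ± 0.382 TPM in controls. Its log2 fold change was -0.20 (SE 0.04, adjusted p = 3.24e-05, edgeR). Sox18, which acts upstream of Prox1, fell by 0.36 on that scale (SE 0.07, adjusted p = 3.38e-04, edgeR). Nr2f1, the close relative of Nr2f2, averaged 2.85 ± 0.360 TPM with LPL overexpression and 4.18 ± 0.218 TPM in controls, and fell by 0.59 on the log2 scale (SE 0.10, adjusted p = 3.85e-06, edgeR). Ephb4, the venous ephrin receptor gene, fell by 0.21 on the log2 scale and Efnb2, its arterial ligand, by 0.13, so that the venous and the arterial partner moved the same way. Cd44, the hyaluronan receptor related to LYVE1 and a partner of podoplanin, had 310.1 ± 5.49 TPM with LPL overexpression and 378.5 ± 14.03 TPM in controls and fell by 0.31 on the log2 scale (SE 0.02).

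Nrp2 and Vegfc, known from lymphatic growth, were higher instead. Nrp2, a co-receptor of VEGF-C, averaged 13.1 ± 0.608 TPM with LPL overexpression and 6.10 ± 0.429 TPM in controls, and its log2 fold change was 1.07 (SE 0.05, adjusted p = 3.80e-25, edgeR). Vegfc had 37, 29, 27 and 35 reads in the LPL overexpression libraries and 0 in each control, at least 32.1-fold more than a floor of 3 reads over the control group. The melanocyte markers were summed at 1691 CPM or more in those same libraries, and which cells gave the Nrp2 and Vegfc reads was not tested.

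**Figure D2:**
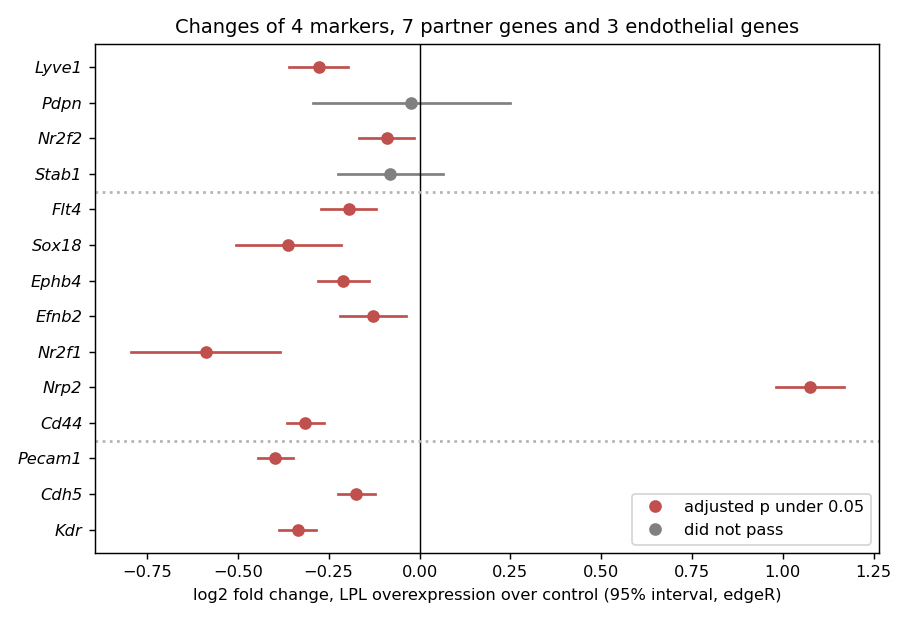
Log2 fold change of LPL overexpression over control (x axis) with its 95% interval from edgeR, for 4 of the markers, 7 partner genes and 3 general endothelial genes (y axis, groups divided by dotted lines). Red marks an adjusted p under 0.05 and grey genes that did not pass. Lyve1 at -0.28 lies among Flt4, Sox18, Cd44, Pecam1 and Kdr, Nrp2 stands alone to the right at 1.07, and Prox1, Vegfc and Stab2 are left out because few or no reads were counted in 1 or both groups.

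Lists of genes around these markers were counted, with 43.2% of all genes tested being called and a median log2 fold change of 0.00. Of 24 lymphatic genes 16 were tested, of which 3 rose (Vegfc, Itga9 and Nrp2), 5 fell (Flt4, Sox18, Angpt2, Gja1 and Efnb2) and 8 did not pass, with a median of -0.04. Vegfc and Itga9 passed the filter on low counts only through the LPL overexpression libraries and could count only as rises. Itga9, an integrin chain of lymphatic valves, had 248 reads with LPL overexpression and 2 in controls, a ratio of 93.3 (95% counting interval 25.6 to 775). Angpt2, a Tie2 ligand, averaged 78.7 ± 5.57 TPM with LPL overexpression and 128 ± 4.26 TPM in controls. The lymphatic genes Mmrn1, Fxyd6, Ccl21a and Adamts3 had 0 reads in all 7 libraries, beside the near absence of Prox1. Of 15 venous genes 13 were tested, with 3 higher, 7 lower and a median of -0.18, and 76.9% called. Besides Nrp2 and Nr2f1 the named gene was Selp, which encodes P-selectin, with 128 ± 6.68 TPM and 171 ± 3.38 TPM.

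Of 23 arterial genes 16 were tested, with 4 higher, 7 lower, a median of -0.09 and 68.8% called. Foxc1 and Fbln5, among the higher ones, passed the filter only through the LPL overexpression libraries. For Fbln5 the controls fell short through replicate 2, which had 10 reads. Dll4, the arterial Notch ligand gene, averaged 14.7 ± 1.52 TPM with LPL overexpression and 25.7 ± 2.33 TPM in controls, a log2 fold change of -0.83 (SE 0.08), and Ltbp4, a TGF-beta binding protein gene, had -0.45 (SE 0.07). Fbln5, an elastic fibre gene, was higher at 8.89 ± 0.940 TPM with LPL overexpression and 0.335 ± 0.116 TPM in controls. Gja4 and Sox17, arterial markers, had 0 reads in all libraries. The difference between the venous and arterial lists was not tested.

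Sinusoidal genes other than the stabilins were mostly too low to be tested. Of 21 genes 8 were tested, of which Maf, Ehd3, Ctsl and F8 rose, Oit3, Bmp6, Scarb1 and Icam1 did not pass and 0 fell in edgeR, with 0 lower at an unadjusted p under 0.05 and 0 lower in DESeq2. The share called, 4 of 8, was near the 43.2% of all genes, and the median log2 fold change was 0.25. Scarb1, the HDL receptor gene, stood at 34.1 ± 0.717 TPM with LPL overexpression and 33.5 ± 0.357 TPM in controls. Maf passed the filter on low counts only through the LPL overexpression libraries and could count only as a rise, so the counts and the median support no direction. Maf, a transcription factor of liver sinusoids, had 55, 68, 59 and 64 reads in the LPL overexpression libraries and 0 in each control, at least 61.7-fold above the floor. Ehd3, an endocytic protein gene, averaged 10.5 ± 1.05 TPM with LPL overexpression and 4.85 ± 0.413 TPM in controls. Ctsl, a lysosomal protease gene, had 437 ± 10.3 TPM and 385 ± 9.36 TPM. Clec4g, Wnt2 and Wnt9b, known from liver sinusoids, had 0 reads in every library, and Mrc1, the mannose receptor gene, had 0 reads with LPL overexpression and 8 in the controls.

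Genes that share functions with LYVE1 and the stabilins moved in both directions or not at all. Of 16 genes for hyaluronan receptors, synthesis and breakdown 10 were tested, with 3 higher, 3 lower and a median of 0.01. The share called was 60.0%, against 43.2% of all genes tested. Cd44 was the largest fall among them, Hyal2, a surface hyaluronidase gene, fell by 0.13 and Gusb, a lysosomal glucuronidase gene, rose by 0.11 on the log2 scale. Of 14 scavenger receptor genes 8 were tested, with 4 higher and 0 lower in edgeR, 1 lower at an unadjusted p under 0.05, 1 lower in DESeq2 and 1 lower without LPL overexpression replicate 4. Of the 4 rises, Scarf2 and Megf10 passed the filter only through the LPL overexpression libraries. Scarf2, a scavenger receptor gene of the class F family, had 430 reads with LPL overexpression and 3 in controls, a ratio of 108 (95% counting interval 36.7 to 525). Cd68 averaged 261 ± 11.1 TPM with LPL overexpression and 194 ± 8.67 TPM in controls, and Scarb2, a lysosomal membrane protein gene, 53.1 ± 1.32 TPM and 47.2 ± 0.743 TPM.

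Of 12 partners of podoplanin 10 were tested, with 1 higher, 6 lower and a median of -0.10. The share called was 70.0%, against 43.2% of all genes tested, where 21.3% were called lower. Ezr, which encodes ezrin and links podoplanin to actin, averaged 125 ± 5.38 TPM with LPL overexpression and 146 ± 2.21 TPM in controls, and Cd82, a tetraspanin gene, rose by 0.23 on the log2 scale. Clec1b, the gene of the receptor CLEC-2, had 5 reads with LPL overexpression and 2 in controls. Of 16 relatives and partners of Prox1 and Nr2f2 13 were tested, with 2 higher and 3 lower, or 1 higher and 5 lower without LPL overexpression replicate 4. With all libraries the share called was 38.5%. Bcl11a, 1 of the 2 rises, passed the filter only through the LPL overexpression libraries. Zfpm1, a cofactor gene of the family whose member Fog2 binds COUP-TFII, fell by 0.36 on the log2 scale. Gata2, which acts upstream of Prox1 in lymphatic valves, stood at 48.97 ± 0.908 TPM and 48.58 ± 1.70 TPM and did not pass (adjusted p = 0.743 in edgeR).

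**Figure D3:**
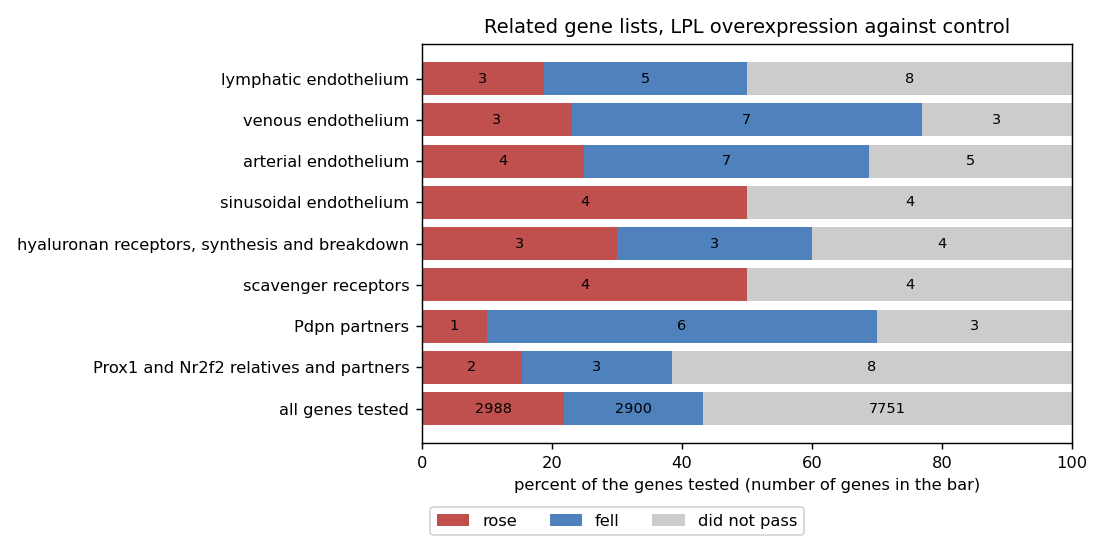
Share of tested genes that rose (red), fell (blue) or did not pass (grey) in edgeR at an adjusted p of 0.05 (x axis, percent, with gene numbers in the bars) for 8 related lists and all 13639 genes tested (y axis). The venous list has 3 rises and 7 falls and the sinusoidal list 4 rises and 0 falls, beside 2988 rises and 2900 falls over all genes.

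The genes whose levels across the 7 libraries were most like each marker were taken from 9674 genes by Pearson's r of log2 CPM, given as a description because all points share the same 2 groups and library depths. Those most like Lyve1 were Rtcb, Sptan1 and Pgm1, with r between 0.991 and 0.992. Nr2f2 was followed most closely by Mink1, Zfhx3 and Cbfa2t3, with r from 0.995 to 0.996, and for Stab1 the genes given are Grn, with r of 0.983, and Xpo6, with r of 0.9752. For Pdpn the genes were Rgp1, Gata2 and Ddost, with r from 0.953 to 0.958.

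Ratios between the markers were also compared within libraries. Lyve1 over Stab1 in TPM was 0.184, 0.227, 0.184 and 0.172 in the LPL overexpression libraries, against 0.224, 0.214 and 0.218 in the controls, and the groups overlapped through replicate 2 (p = 0.143, exact two-sided permutation test). Lyve1 over Nr2f2 was 2.62, 3.01, 2.68 and 2.59, against 3.09, 3.10 and 3.13, without overlap (p = 0.0571, exact two-sided permutation test). These are 2 of 4 ratios between markers computed after the data had been seen, and none of the 4 passed 0.05 before any adjustment.

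**Figure D4:**
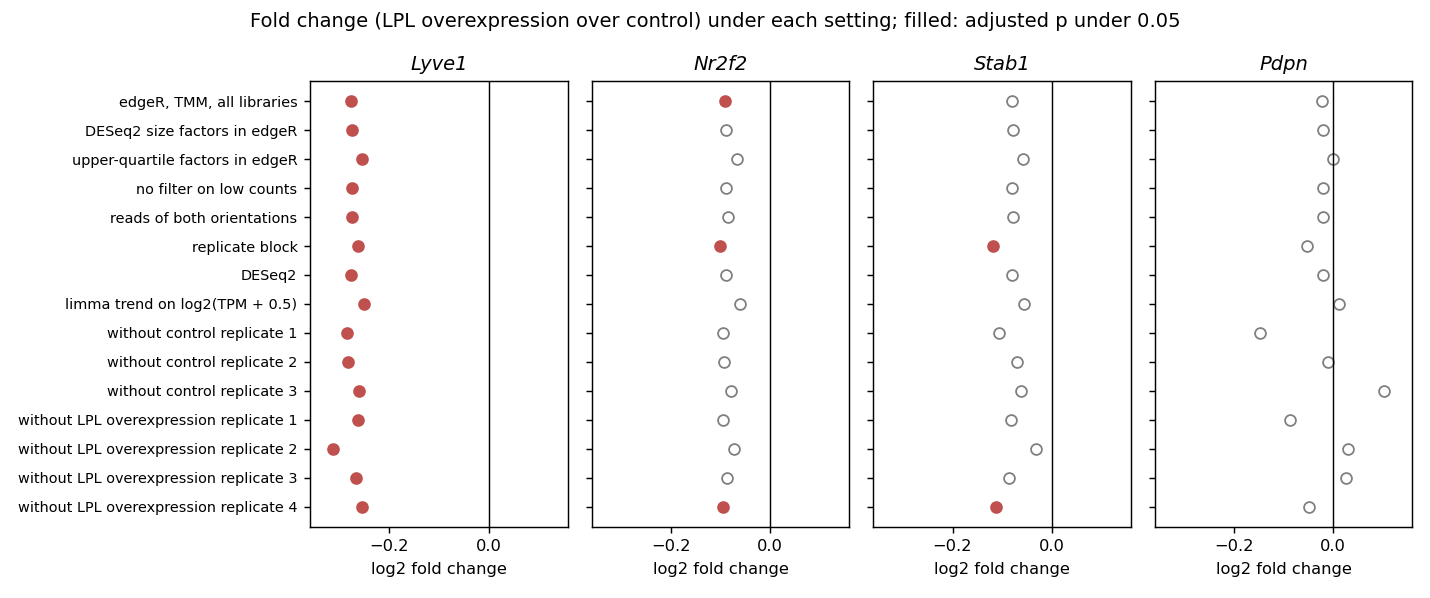
Log2 fold change of LPL overexpression over control (x axis) for Lyve1, Nr2f2, Stab1 and Pdpn under each of 15 settings of the test (y axis), with filled points where the adjusted p was under 0.05. Lyve1 stays between -0.31 and -0.25 and filled throughout, Nr2f2 is filled in 3 settings, Stab1 in 2 and Pdpn lies on both sides of 0.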

How the data were processed

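Per the submitters' processing notes, reads were aligned with STAR to mm10. Neither their versions nor the annotation is named in the labels. The deposited counts are whole reads of each gene, not normalized, and given per orientation, per the file headers. Reverse reads, the sense orientation of the stranded kit and between 97.0% and 97.1% of oriented reads, were used. The deposited TPM values were scaled by the authors to exonic length and sum to 1000000. CPM here are counts over TMM-scaled library sizes.

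Counts were tested with edgeR 4.0.16 (R 4.3.3), with TMM, filterByExpr by group, group as the only term and the robust option. Benjamini-Hochberg adjustment ran over 13639 genes. Each SE is the size of the log2 fold change divided by the root of its F statistic. The steps were tested on simulated counts. Alternatives used DESeq2 1.42.0, limma 3.58.1, other scaling, no filter, both orientations, a replicate block and leaving out each library. Replicate numbers were not taken as pairs. Counting intervals and floors, 3 reads over a group, cover counting error only.

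The 6 genes and all lists were chosen with earlier results of these data known. Named were the 6 markers, Lpl, 8 partners, up to 3 called genes per list with the largest change, a mean of at least 1 CPM and no overlap, and for each marker above 1 CPM the 3 genes most like it among genes of at least 5 CPM, predicted and clone names left out; 1 of these genes is not reported here. Other genes were named after their values were seen. Cemip2 was found under its older symbol, Tmem2.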

Additional observations from a re-analysis of the deposited data

Results flagged for a closer look

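Lyve1 in LPL overexpression replicate 2 stood apart from the other 3 libraries of its group. It had 54.9 TPM, against 49.7 to 50.2 TPM in the others, and its gap to the next library was 0.913 of the whole range of the group, above the 95% critical value of Dixon's test for 4 libraries. It was still below all 3 controls. Chance flags about 1 in 20 such groups, and 6 genes were looked at. Without this library the log2 fold change of Lyve1 was -0.31.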

How the results depend on the processing

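Lyve1 was called lower in all 14 alternatives, with log2 fold changes from -0.31 to -0.25. Prox1 ran from 0.55 on log2(TPM + 0.5) to 7.13 without control replicate 2, which held its 3 control reads. Its calls say nothing of stability, since, except with no filter, it was tested only where the LPL overexpression libraries carried it past the filter. The call of Nr2f2 ended with DESeq2 size factors (-0.088, adjusted p = 0.0547), upper-quartile factors (-0.0676), no filter (-0.0882, adjusted p = 0.103), both orientations (-0.0859, adjusted p = 0.0661), DESeq2 (-0.0889, adjusted p = 0.154) and log2(TPM + 0.5) (-0.0615), and its values without 1 library ran from -0.0954 to -0.0729. The cause was not tested. Pdpn turned to 0.0113 on log2(TPM + 0.5) and ran from -0.148 to 0.1026 without 1 library. In mean level its log2 ratio was -0.0211 on CPM, against 0.0074 on TPM. Relative to 12 endothelial genes, a scale added after seeing the data, Nr2f2 (0.0648) and Stab1 (0.0722) turned upward, while Lyve1 (-0.1262) no longer passed. Pecam1, itself called lower, was the largest term of that scale, and the scale without it was not tested.

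The replicate block gave 5794 called genes, against 5888 without it. Same-numbered libraries did not deviate together (r of -0.0189, -0.0391 and 0.0193), so the numbers were not taken as pairs. With the block Stab1 was called at -0.1189 (adjusted p = 1.52e-04). Without 1 library Stab1 ran from -0.1116 to -0.0307. The count of genes called stayed within 1.5 times of 5888 in every alternative, from 4685 with DESeq2 to 5939 with upper-quartile factors. With at most 25 reads per library, Prox1 and Stab2 are limited by depth.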

Other observations

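Forkhead genes of lymphatic valves were low in MS-1 cells. Foxc2, which shapes lymphatic valves, averaged 0.460 ± 0.146 TPM with LPL overexpression (SD, n = 4) and 0.238 ± 0.0271 TPM in controls (SD, n = 3) and did not pass (adjusted p = 0.0612 in edgeR). Foxc1, its close relative and a member of the arterial list, was called higher, having passed the filter only through the LPL overexpression libraries, with 0.918 ± 0.170 TPM and 0.121 ± 0.129 TPM (log2 fold change 2.84, SE 0.37). Hhex, a homeobox gene that acts with Prox1 in lymphatic development, stood at 141 ± 10.8 TPM with LPL overexpression and 141 ± 3.88 TPM in controls (adjusted p = 0.670 in edgeR). Vegfd, the gene of the other lymphatic growth factor, averaged 1.94 ± 0.273 TPM and 1.45 ± 0.280 TPM and did not pass (adjusted p = 0.0958 in edgeR). In CPM it was higher in 4 of 4 libraries, as were 22.8% of all genes tested. These genes were chosen after their values were seen.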
